A study of Drosophila melanogaster with 16 samples.

Results

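Expression of 10 genes of the amnioserosa and dorsal ectoderm was examined in naïve Drosophila embryos in which Wnt signalling was activated or blocked. The genes were zen, C15, Doc1, Doc2, Doc3, tup, pnr, ush, peb and Ance. They were chosen by name, as genes known to be active in these tissues, and were read from every probeset that the platform annotation assigns to 1 gene. The choice was made with earlier results of these data known, so shares of the 10 set against all genes are descriptive. All 10 were found, on 11 probesets, among 11895 genes with such a probeset. All 10 lay above 2.5, the log2 value used as the expression filter, on all 16 arrays.

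The amnioserosa is an extraembryonic epithelium on the dorsal side of the fly embryo that drives germ band retraction and dorsal closure. It is specified at the highest levels of Dpp signalling, a BMP pathway in which the ligand acts through the receptors Tkv and Put and the transcription factor Mad, while lower levels give dorsal ectoderm. Canonical Wnt signalling, in which the ligand Wg stabilises Arm (β-catenin) so that it can act with TCF, patterns the embryo later along the axis from head to tail and also acts in the dorsal epidermis and heart.

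Embryos of all groups came from mothers mutant for bcd, nos and tsl, and so lacked the maternal cues for the head, the tail and the termini. The maternal cues for the dorsal-ventral axis were not mutated. In the tested genotypes the mothers also carried the ubiquitous driver da-Gal4. The study does not say whether the mothers of WT embryos carried it. The tested genotypes expressed 1 transgene each, apart from arm∆N-tcf∆N-short, which expressed both of those in its name. They were tcf∆N-short (a TCF without its Arm-binding region, Groucho-binding sequence and C-clamp, which is a dominant negative), tcf∆N-long (a TCF that lacks only the Arm-binding region), Wg++ (Wg overexpression), arm∆N (a stabilised Arm), DisArmed (an Arm that binds TCF but does not activate transcription), and Otk++ (Otk, a Wnt4 co-receptor). WT refers to naïve embryos that expressed none of these transgenes and carried the same maternal mutations. According to the study, naïve embryos do not gastrulate, which avoids cell types of the mesoderm and endoderm. Whether they form an amnioserosa was not examined here. Each array held RNA pooled from about 50 embryos aged 4 to 16 h, and each of the 8 genotypes had 2 arrays, described as biological replicates.

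Values are log2 intensities after GC-RMA, with a lowest value of 2.289 that occurs on all 16 arrays. Differences between genotypes were tested with limma over 8862 genes, and a gene passed at a fold change above 1.5 and an FDR under 10%. Replicate arrays correlated at 0.954 to 0.988, any pair of arrays at 0.828 to 0.988, and the closest array was the own replicate for 10 of 16 arrays. The labels were checked with wg, higher in Wg++ than in WT by 3.68, and with pan, which encodes TCF, higher by 5.83, 6.12 and 5.67 in the genotypes with tcf∆N-short, tcf∆N-long and both arm∆N and tcf∆N-short (log2, limma, adjusted p = 6.58e-05, 3.74e-06, 4.5e-06 and 2.86e-06). In whole embryos, fewer cells of a type and less RNA per cell cannot be told apart, and these genes are also active outside the amnioserosa, peb in the trachea and midgut, and the Doc genes, tup and pnr in the heart.

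Of the 10 genes, 3 passed the test in a comparison with WT. Ance and peb were lower in Wg++ and in arm∆N than in WT, Doc1 was lower in tcf∆N-short, and none of the 10 passed the test against WT in the remaining 4 genotypes. Those were tcf∆N-long, where 3.74% of all genes passed, DisArmed (0.598%), Otk++ (0.327%) and arm∆N-tcf∆N-short (3.18%). In the F test over all 7 genotypes against WT, Ance was the only one of the 10 at an FDR under 1% (adjusted p = 0.00123, limma), a level that 12.3% of all genes tested reached. At an FDR under 5%, which 35.4% of all genes reached, tup (adjusted p = 0.0396) and Doc1 (adjusted p = 0.0499) passed as well.

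**Figure D1:**
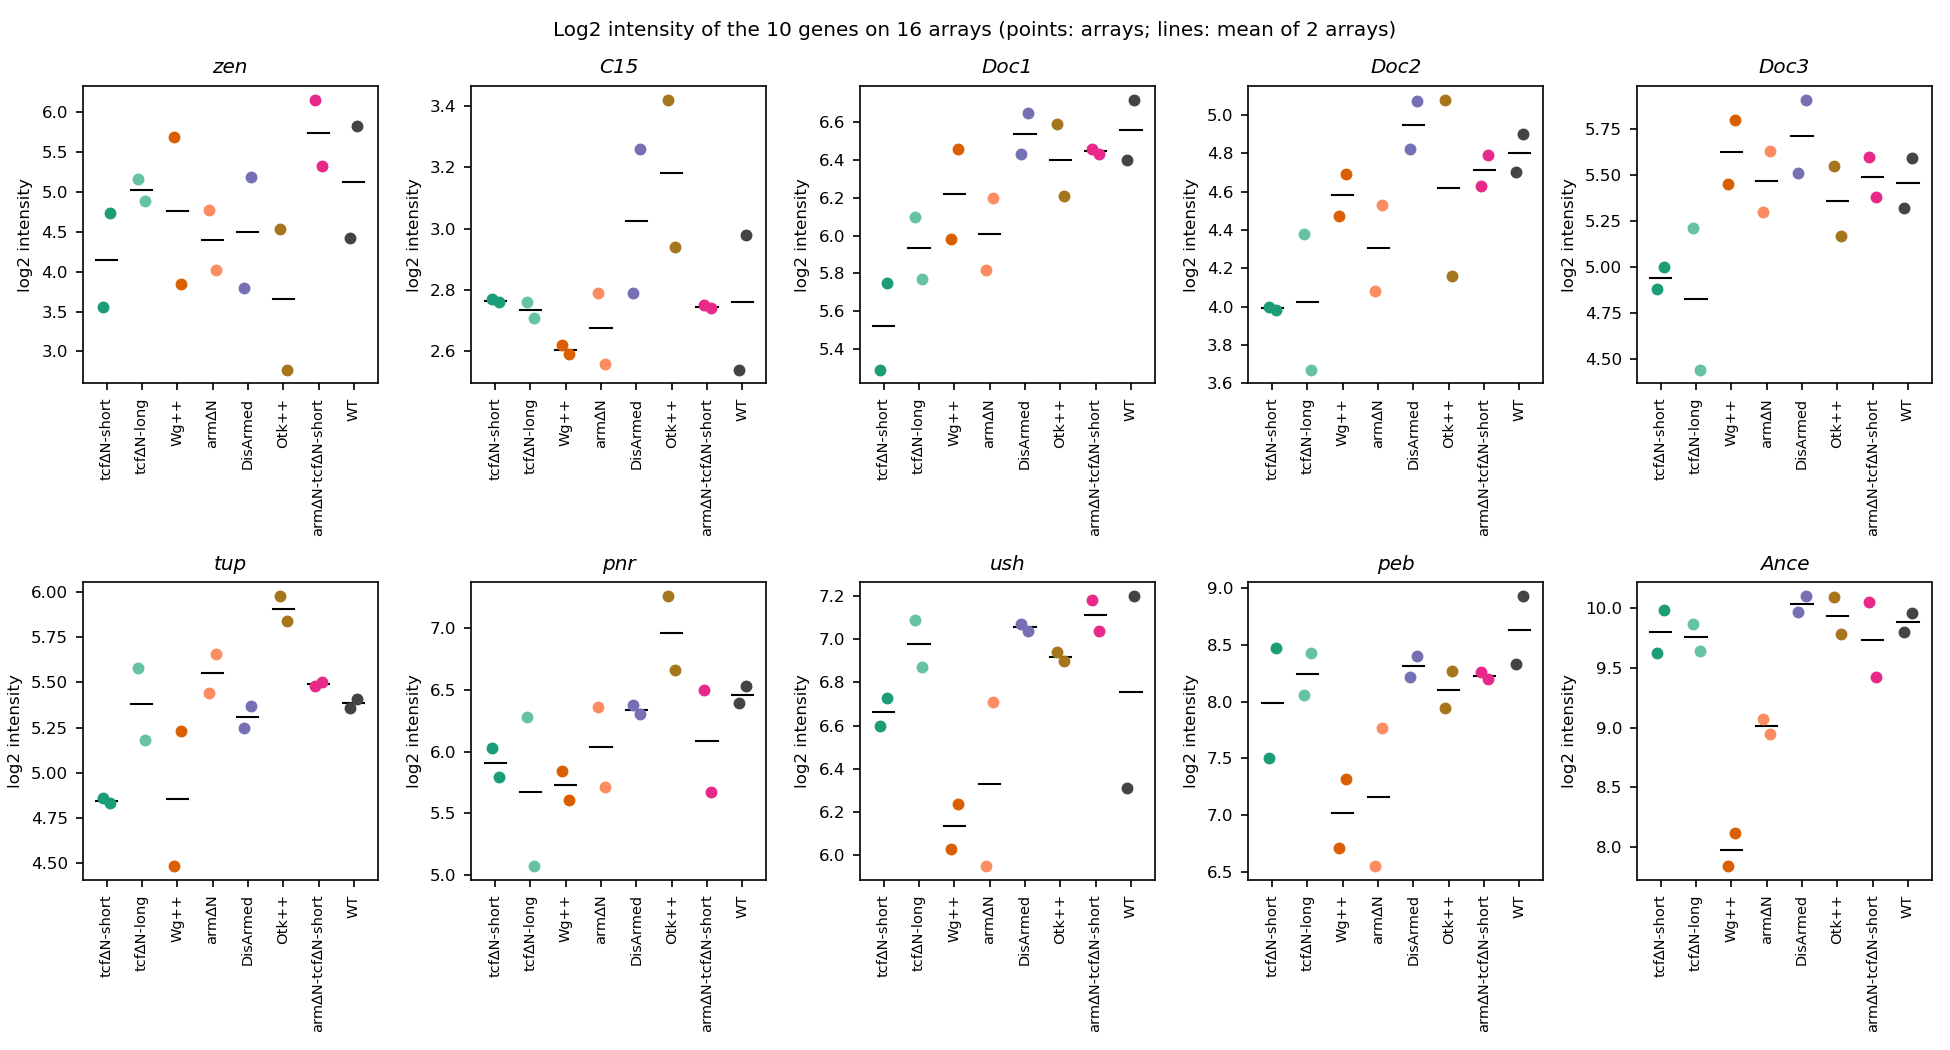
Log2 intensity (y axes, each with its own range) of the 10 genes in the 7 tested genotypes and WT. Points are single arrays and lines are means of 2 arrays. Both Wg++ arrays of Ance (7.84 and 8.12) lie below all arrays of the other genotypes, and the zen arrays of 1 genotype often lie far apart.

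Ance encodes a homologue of angiotensin-converting enzyme and is expressed under Dpp control in the dorsal embryo (chromosome 2L, 13905645 to 13909212 of the Release 6 assembly). Its log2 intensity was 7.84 and 8.12 in Wg++ and 9.07 and 8.95 in arm∆N, against 9.80 and 9.96 in WT. The tcf∆N-short arrays had 9.62 and 9.98, and it was 9.87 and 9.64 in tcf∆N-long, 9.97 and 10.1 in DisArmed, 10.09 and 9.78 in Otk++, and 10.05 and 9.42 in arm∆N-tcf∆N-short. The Wg++ arrays were the lowest of the 16, the arm∆N arrays came next, and the arrays of the other 6 genotypes formed a range of their own in which all neighbours by mean overlapped.

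Ance fell by 1.90 on the log2 scale in Wg++ relative to WT (SE 0.23, 95% interval −2.42 to −1.39, limma adjusted p = 0.000644), which is 3.74-fold. In arm∆N it fell by 0.87 (SE 0.23, 95% interval −1.38 to −0.36, limma adjusted p = 0.0338), which is 1.83-fold. Ance was thus lower with both activators of the pathway, and in a direct comparison it was lower in Wg++ than in arm∆N by a log2 difference of −1.03 (SE 0.23, limma adjusted p = 0.00945). The differences for Wg++ passed without any 1 of the 16 arrays, over which Wg++ minus WT was −2.04 to −1.77. That for arm∆N did not pass without arm∆N replicate 2 (−0.81, adjusted p = 0.14) or WT replicate 2 (−0.79, adjusted p = 0.101), nor in a fit of only these 2 genotypes (adjusted p = 0.138).

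peb, also known as hindsight, encodes a zinc finger protein that the amnioserosa needs for germ band retraction (X, 4617564 to 4627206). Its log2 intensity was 6.71 and 7.32 in Wg++ and 6.55 and 7.77 in arm∆N, against 8.33 and 8.93 in WT. In the other genotypes it lay between 7.5 (tcf∆N-short replicate 1) and 8.47 (tcf∆N-short replicate 2). Neither the Wg++ nor the arm∆N arrays overlapped those of WT, but the arm∆N arrays were 1.22 apart and the higher one lay above the lower array of tcf∆N-short.

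peb fell by 1.61 in Wg++ (SE 0.42, 95% interval −2.54 to −0.69, limma adjusted p = 0.013) and by 1.47 in arm∆N (SE 0.42, 95% interval −2.4 to −0.54, limma adjusted p = 0.0428) relative to WT. Wg++ and arm∆N differed by −0.14 (95% interval −1.07 to 0.78, adjusted p = 0.832), so the direct comparison that separated them for Ance did not do so for peb. Without Wg++ replicate 1 the Wg++ difference was −1.30 (adjusted p = 0.105). The arm∆N difference was −0.86 without arm∆N replicate 1 (adjusted p = 0.247), −1.17 without WT replicate 2 (adjusted p = 0.161), and did not pass in a fit of only these 2 genotypes (adjusted p = 0.176).

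Ance and peb were 2 of the 10 genes lower in Wg++, where 22% of all genes tested were lower, and 2 of 10 in arm∆N, where 11.6% were. The count in Wg++ is thus near that of all genes. Counting arrays that lay below both WT arrays without regard to size, 6 of the 10 genes did so in Wg++ (40.7% of all genes) and 5 in arm∆N (31.9% of all genes). The median log2 difference of the 10 genes was −0.44 in Wg++ and −0.46 in arm∆N, against −0.11 and −0.08 over all genes. After cyclic loess between arrays, which moved the Wg++ median of all genes by 0.10, the medians of the 10 were −0.28 and −0.30. Both comparisons use the same WT arrays.

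Markers of other tissues and stages differed between the same arrays. Of 5 late cuticle genes tested, 4 were lower in Wg++ than in WT (TwdlF by −5.74, and TwdlG, Cpr66D and Cpr65Av), and the mean log2 intensity of the 5 was 6.15 and 7.18 in Wg++, 9.55 and 9.34 in arm∆N, and 9.17 and 9.40 in WT. Of 10 transcripts laid down in the egg, 4 were higher in Wg++ (bcd by 4.24, and stau, swa and osk), and their mean was 8.0 and 7.40 in Wg++, 6.97 and 5.92 in arm∆N, and 6.07 and 5.33 in WT. In arm∆N none of the late cuticle or egg transcripts passed. Of 5 neural genes tested, 3 were lower in Wg++ (Dr, elav and ase), and 2 were lower (ase and elav) and 1 higher (nSyb) in arm∆N, with means of 5.25 and 5.52 in Wg++, 5.76 and 5.62 in arm∆N, and 5.86 and 6.00 in WT. Of 5 mesodermal genes, htl was lower in Wg++ (−0.80, adjusted p = 0.00358) and none passed in arm∆N. Their mean was 5.04 and 5.17 in Wg++ and 4.93 and 5.05 in arm∆N, against 5.22 and 5.46 in WT, so that neither genotype overlapped WT. Of 5 markers of the blastoderm stage none passed in either genotype, and 3 in Wg++ and all 5 in arm∆N were measured below WT. Their mean was 6.51 and 5.42 in Wg++ and 5.62 and 5.61 in arm∆N, against 5.99 and 6.99 in WT. The part of these differences in the levels of Ance and peb was not tested.

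pnr encodes a GATA factor of the dorsal ectoderm (3R, 16026079 to 16041796) and ush its FOG-type cofactor (2L, 476220 to 540560). The log2 intensity of ush was 6.03 and 6.24 in Wg++ and 5.95 and 6.71 in arm∆N, against 6.31 and 7.20 in WT. The WT arrays were 0.89 apart, the widest gap for ush in any genotype, and neither the Wg++ difference (−0.62, 95% interval −1.27 to 0.03, adjusted p = 0.122) nor that of arm∆N (−0.43, 95% interval −1.08 to 0.22, adjusted p = 0.369) passed. pnr had a log2 intensity of 5.84 and 5.61 in Wg++ and 6.28 and 5.07 in tcf∆N-long, against 6.39 and 6.53 in WT. Its difference was −0.74 in Wg++ (95% interval −1.62 to 0.14, adjusted p = 0.172) and −0.79 in tcf∆N-long (95% interval −1.67 to 0.09, adjusted p = 0.343), with arrays that did not overlap those of WT and no call in either. The pnr arrays of tcf∆N-short, arm∆N and DisArmed also lay below WT without overlap. Those of Otk++, at 7.26 and 6.66, lay above WT without overlap, by 0.50 (limma adjusted p = 0.566). pnr passed in none of these.

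tup encodes a LIM homeodomain protein of the amnioserosa and heart (2L, 18859507 to 18881261). Its log2 intensity was 4.48 and 5.23 in Wg++ and 5.44 and 5.66 in arm∆N, against 5.36 and 5.41 in WT. It was 4.86 and 4.83 in tcf∆N-short and 5.98 and 5.84 in Otk++, among the lowest and the highest of the means. Wg++ lay below arm∆N with no overlap, by −0.70 (SE 0.23, 95% interval −1.21 to −0.19, limma adjusted p = 0.0431).

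That difference was −0.32 without Wg++ replicate 1 (adjusted p = 0.367), −0.58 without arm∆N replicate 2 (adjusted p = 0.195), and did not pass in a fit of only these 2 genotypes (adjusted p = 0.146). Against WT tup did not pass in Wg++ (−0.53, adjusted p = 0.0969), since the change of 1.44-fold lay below the fold threshold, nor in tcf∆N-short (−0.54, adjusted p = 0.237) or Otk++ (0.53, adjusted p = 0.284). tup and Ance were the 2 of the 10 genes lower in Wg++ than in arm∆N, where 18.3% of all genes were lower.

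**Figure D2:**
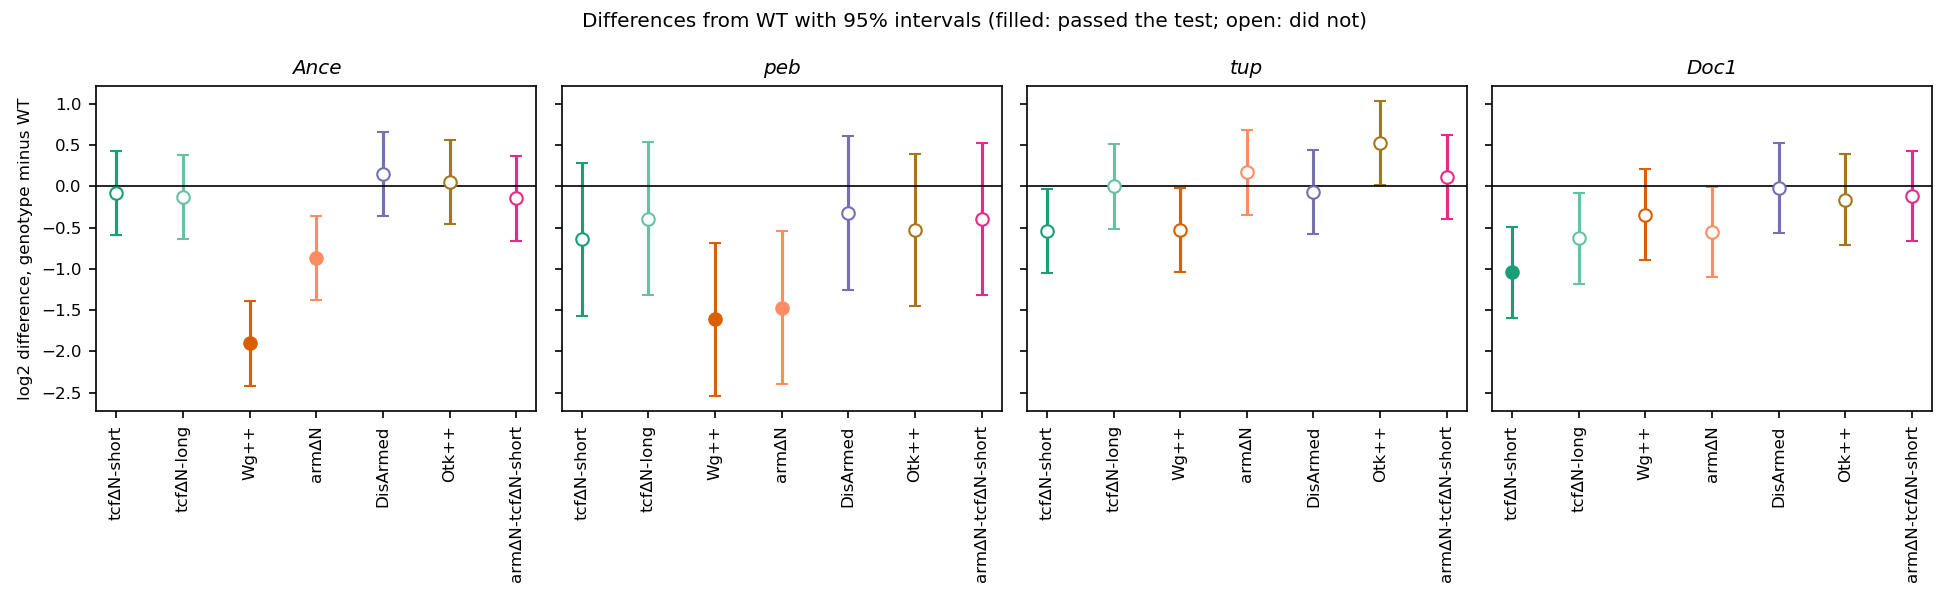
Log2 difference from WT (y axis) of Ance, peb, tup and Doc1 in the 7 tested genotypes, with 95% intervals from limma over 2 arrays per genotype. Filled points passed the test and open points did not. The filled points are Ance and peb in Wg++ and arm∆N, and Doc1 in tcf∆N-short.

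The dorsocross genes Doc1, Doc2 and Doc3 encode T-box factors that act redundantly in the amnioserosa, and lie next to each other on chromosome 3L (Doc3 at 9005196 to 9007249, Doc2 at 9012686 to 9019246 and Doc1 at 9041375 to 9045042, a span of 39.8 kb). Doc1 had a log2 intensity of 5.29 and 5.75 in tcf∆N-short and 6.10 and 5.77 in tcf∆N-long, against 6.4 and 6.72 in WT. Both TCF forms lay below WT without overlap, and tcf∆N-short was the lowest of the 8 genotypes. In the others Doc1 lay between 5.82 (arm∆N replicate 1) and 6.65 (DisArmed replicate 2). The arm∆N arrays, at 5.82 and 6.20, also lay below WT without overlap, with a difference of −0.55 that did not pass (95% interval −1.1 to −0.01, adjusted p = 0.167).

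Doc1 fell by 1.04 in tcf∆N-short relative to WT (SE 0.25, 95% interval −1.59 to −0.49, limma adjusted p = 0.0395), which is 2.06-fold. It was the 1 gene of the 10 that was lower there, against 5.22% of all genes. In tcf∆N-long, where 4 of the 10 genes (all 3 Doc genes and pnr) lay below WT without overlap against 30.8% of all genes, the Doc1 difference was −0.63 (95% interval −1.18 to −0.08, adjusted p = 0.224), and the TCF forms differed from each other by −0.41 (95% interval −0.96 to 0.14, adjusted p = 0.501), so that a difference between them was not shown. The tcf∆N-short difference was −0.81 without tcf∆N-short replicate 1 (adjusted p = 0.288) and −0.88 without WT replicate 2 (adjusted p = 0.136), and did not pass in a fit of only these 2 genotypes (adjusted p = 0.276).

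Doc2 and Doc3 were measured lower with both TCF forms, but neither passed. Doc2 had a log2 intensity of 4.0 and 3.98 in tcf∆N-short and 4.38 and 3.67 in tcf∆N-long, against 4.70 and 4.90 in WT. Doc3 had 4.88 and 5.0 in tcf∆N-short and 5.21 and 4.44 in tcf∆N-long, against 5.32 and 5.59 in WT. The arrays of each TCF form lay below WT for both genes, as did those of arm∆N for Doc2, at 4.08 and 4.53 (−0.49, 95% interval −1.18 to 0.19, adjusted p = 0.327). The differences from WT were −0.81 (adjusted p = 0.186) in tcf∆N-short and −0.78 (adjusted p = 0.229) in tcf∆N-long for Doc2. For Doc3 the tcf∆N-short difference was −0.51 (adjusted p = 0.341) and the tcf∆N-long difference −0.63 (adjusted p = 0.267).

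Over the 8 genotype means, Pearson's r was 0.94 between Doc1 and Doc2, 0.87 between Doc2 and Doc3 and 0.75 between Doc1 and Doc3. Ance, peb and ush formed another set, with r of 0.89 between peb and Ance, 0.88 between ush and Ance and 0.86 between ush and peb. These describe 8 points that share arrays. Each Doc gene had r between −0.30 and 0.35 with Ance, peb and ush. No test compared the sets, and members of both lay below WT without overlap in arm∆N, namely Doc1, Doc2, Ance and peb. In tcf∆N-short the mean of peb was lower than in WT (−0.64, 95% interval −1.57 to 0.28, limma adjusted p = 0.444), but its arrays overlapped those of WT.

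Across all 10 genes the median difference in tcf∆N-short was −0.54, against 0 over all genes, and 9 of 10 were measured below WT, against 49.8% of all genes. Of the 10, 5 had arrays that lay below those of WT without overlap (tup, Doc1, Doc2, Doc3 and pnr), against 24.5% of all genes. Markers of other tissues and stages differed there too. The mesodermal genes htl (−0.69, adjusted p = 0.0322) and bap (−0.96, adjusted p = 0.0431) were the 2 of 5 tested that were lower, with a mean of the 5 of 4.83 and 4.85 in tcf∆N-short and 5.22 and 5.46 in WT. Of the late cuticle genes 1 of 5 was lower (mean 7.57 and 8.51 in tcf∆N-short, 9.17 and 9.40 in WT), and of the 10 egg transcripts none passed, although their mean was 8.25 and 6.33 in tcf∆N-short and 6.07 and 5.33 in WT. Of the neural genes Dr was lower (−0.80, adjusted p = 0.0686), with a mean of the 5 of 5.22 and 5.86 in tcf∆N-short and 5.86 and 6.00 in WT. None of the 5 blastoderm stage markers passed, but all were measured below WT, 3 of them without overlap, with a median of −0.98 and a mean level of 5.4 and 5.63 in tcf∆N-short and 5.99 and 6.99 in WT. The part of these differences in the level of Doc1 was not tested.

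Whether tcf∆N-short acted on these genes in the same way with and without arm∆N was asked with arm∆N-tcf∆N-short. Doc1 had a log2 intensity of 6.46 and 6.43 in arm∆N-tcf∆N-short, against 5.82 and 6.20 in arm∆N. The pair with both transgenes lay above the arm∆N arrays, whereas the tcf∆N-short arrays lay below WT. The difference made by tcf∆N-short was 0.44 with arm∆N (95% interval −0.11 to 0.99, adjusted p = 0.339) and −1.04 without it. The difference between these effects was 1.48 (SE 0.35, 95% interval 0.70 to 2.26, limma adjusted p = 0.0402).

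Doc1 was the 1 gene of the 10 to pass this test of the interaction, with 7.08% of all genes passing in that direction. It did not pass without tcf∆N-short replicate 1 (1.25, adjusted p = 0.128) or arm∆N replicate 1 (1.29, adjusted p = 0.115). All 10 genes were measured above 0, from 0.06 for C15 to 2.32 for zen, with a median of 0.84 against 0.07 over all genes, of which 53.9% were above 0. The interactions reuse the tcf∆N-short, arm∆N and WT arrays compared above, so they are not independent of those differences. Such values were not particular to these genes. The median interaction was 2.31 over the 5 blastoderm stage markers, none of them below 0. It was 1.07 over the mesodermal, 1.02 over the neural and 0.75 over the late cuticle genes, but −2.08 over the egg transcripts. Doc2 had an interaction of 1.21 (95% interval 0.24 to 2.18, adjusted p = 0.129) and peb one of 1.72 (95% interval 0.41 to 3.03, adjusted p = 0.114). Among the markers, 2 of the 10 egg transcripts were lower and 2 of the 5 mesodermal genes higher in the same test, as were 1 of 5 neural genes and 1 of 5 markers of the blastoderm stage, and their part in the Doc1 result was not tested.

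Relative to arm∆N alone, Ance was higher in arm∆N-tcf∆N-short by 0.73 (SE 0.23, 95% interval 0.22 to 1.24, limma adjusted p = 0.0868), the 1 of the 10 genes that was higher, against 6.27% of all genes. The arm∆N-tcf∆N-short arrays, at 10.05 and 9.42, lay above both arm∆N arrays and their range took in both WT arrays. This call was lost without arm∆N-tcf∆N-short replicate 1 (0.41, adjusted p = 0.404), in 8 other settings that left out 1 array, with no expression filter (adjusted p = 0.105), with the filter at 4 (adjusted p = 0.106) and in a fit of only these 2 genotypes (adjusted p = 0.359). peb, at 8.26 and 8.20 in arm∆N-tcf∆N-short against 6.55 and 7.77 in arm∆N, differed by 1.07 (95% interval 0.15 to 2, adjusted p = 0.158), and ush, at 7.18 and 7.04 against 5.95 and 6.71, by 0.78 (95% interval 0.13 to 1.43, adjusted p = 0.141). In all, 6 of the 10 genes lay above arm∆N without overlap, against 27.8% of all genes. The mean of 5 markers of the blastoderm stage was 7.15 and 6.48 in arm∆N-tcf∆N-short and 5.62 and 5.61 in arm∆N, and its part in these differences was not tested. The 1 marker that was higher, bnk (3.24 and 3.09 against 2.44 and 2.36), lay close to the lowest value of the data. Relative to WT, the 10 genes in arm∆N-tcf∆N-short lay between −0.40 (peb) and 0.62 (zen), with a median of −0.05 and a lowest adjusted p of 0.845.

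**Figure D3:**
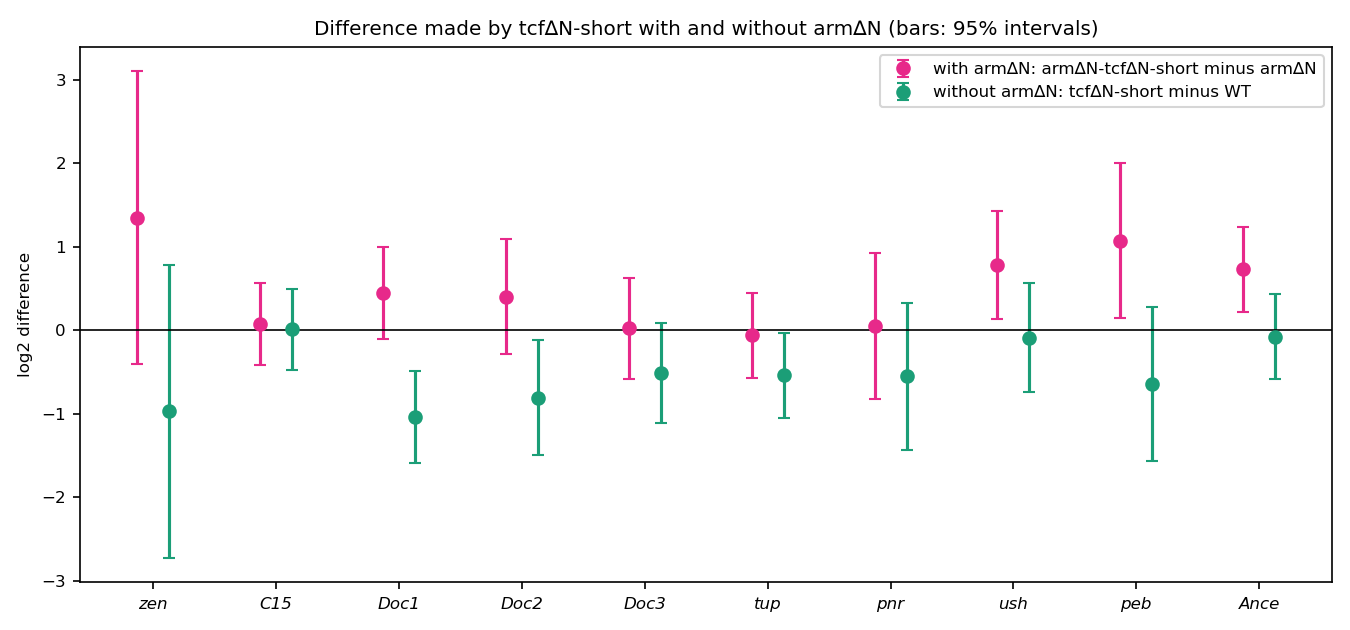
Log2 difference (y axis) made by tcf∆N-short in the presence of arm∆N (arm∆N-tcf∆N-short minus arm∆N) and in its absence (tcf∆N-short minus WT) for the 10 genes, with 95% intervals from limma. The first lies above the second for all 10, and the difference between them passed the test for Doc1 (1.48).

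zen encodes a homeodomain protein that acts at the top of amnioserosa specification (3R, 6752864 to 6754194). Its log2 intensity was 3.56 and 4.74 in tcf∆N-short. The tcf∆N-long arrays had 5.16 and 4.89, and it was 5.69 and 3.84 in Wg++ and 4.78 and 4.02 in arm∆N. It was 3.80 and 5.19 in DisArmed, 4.54 and 2.77 in Otk++ and 6.16 and 5.33 in arm∆N-tcf∆N-short, against 4.42 and 5.83 in WT. Every genotype overlapped the next in the order of means, and zen passed no comparison. Its widest difference from WT was −1.47 in Otk++ (95% interval −3.22 to 0.29, adjusted p = 0.383), an interval that leaves room for a change of over 1.5-fold in the lower direction. The lower Otk++ array, at 2.77, was close to the lowest value of the data.

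The replicates of zen lay far apart. The median gap between the 2 arrays of a genotype was 1.28 for zen, at percentile 99.6 of all genes tested, where the median gene had a gap of 0.29. Among the other 9 genes the median gap ran from 0.13 (tup) to 0.49 (peb). zen is transcribed early, in the cellularising blastoderm and early gastrula, and its level moved with that of 5 genes used as markers of the blastoderm stage (nullo, bnk, slam, halo and Sry-alpha). Over the 16 arrays, Pearson's r between zen and the mean of these markers was 0.93 (Spearman's rho 0.96), and between zen and the single markers 0.67 to 0.91. The points share genotypes and arrays. On all 16 arrays bnk lay within about 1 of the lowest value, too close to background to rank genotypes. On Otk++ replicate 2, zen (2.77), nullo (2.29) and halo (3.25) were that close as well. The mean of the markers was 5.72 and 3.36 in Otk++ and 4.75 and 6.35 in DisArmed, against 5.99 and 6.99 in WT, so the array with less zen also had less of the markers in each of these genotypes.

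**Figure D4:**
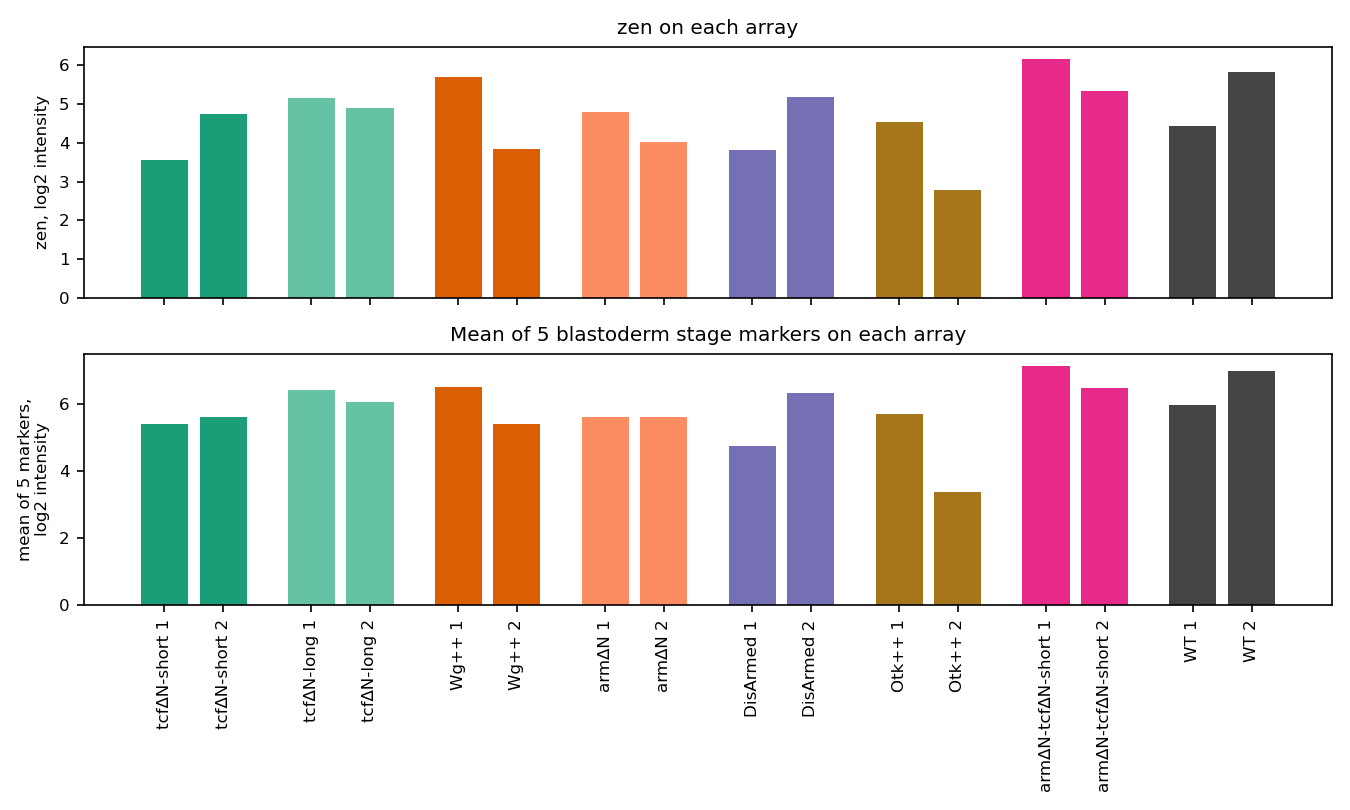
Log2 intensity of zen (top) and mean log2 intensity of 5 blastoderm stage markers (bottom) on each of the 16 arrays, grouped by genotype. Bars are single arrays and start at 0. Otk++ replicate 2 has the lowest bar in both panels (2.77 and 3.36) and arm∆N-tcf∆N-short replicate 1 the highest (6.16 and 7.15).

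C15, a homeodomain gene that responds to high Dpp and is a marker of the amnioserosa (3R, 21499986 to 21512814), was near the lowest value of the data on both of its probesets. The tested probeset lay between 2.54 and 3.42 on the 16 arrays, too close to background to rank genotypes. The other lay between 2.30 and 2.43 and did not reach the filter. No comparison of C15 passed, and at these intensities its absence cannot be told from a level below what the probesets detect. Of the 10 markers of the tissue it is thus the one that these arrays barely registered.

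The Dpp pathway, which acts upstream of these genes, was represented by 16 of 18 listed genes with a probeset, of which 15 were tested. In Wg++, 5 were higher than in WT and 2 were lower, with 40.8% of all genes passing in either direction. The pathway count was thus near that of all genes. The type II receptor gene put had a log2 intensity of 9.73 and 9.53 in Wg++, against 7.88 and 8.13 in WT, a difference of 1.62 (SE 0.26, limma adjusted p = 0.00155). Mad, the transcription factor of the pathway, was higher by 1.27 (SE 0.33, limma adjusted p = 0.0131), with 8.95 and 8.56 in Wg++ against 7.70 and 7.27 in WT. Egg and late cuticle transcripts differed between the same arrays, as given above. Their part in the levels of the pathway genes was not tested.

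The 2 pathway genes that were lower in Wg++ were Dad and gbb. Dad, an inhibitory Smad that is itself induced by Dpp signalling, had a log2 intensity of 6.12 and 5.91 in Wg++, against 7.54 and 6.75 in WT, and fell by 1.13 (SE 0.25, limma adjusted p = 0.00665). It also fell by 0.83 in tcf∆N-short, at 6.17 and 6.46 (SE 0.25, limma adjusted p = 0.0976). Dad was the 1 listed pathway gene to pass there, where 686 of 8862 genes passed in either direction. The BMP ligand gene gbb fell by 0.96 in Wg++ (adjusted p = 0.0144) and by 0.89 in arm∆N (adjusted p = 0.0429), with 7.43 and 7.30 in Wg++ and 7.55 and 7.31 in arm∆N, against 8.42 and 8.22 in WT.

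In arm∆N, 2 of the 15 pathway genes were higher than in WT and 1 was lower. Over all genes 1733 of 8862 passed there in either direction, so the pathway count was near that of all genes. The higher ones were cv-2, which encodes a BMP-binding protein, by 1.46 (SE 0.30, adjusted p = 0.013) and put by 0.79 (SE 0.26, adjusted p = 0.0662). cv-2 had a log2 intensity of 4.43 and 4.34 in arm∆N-tcf∆N-short, against 5.26 and 6.05 in arm∆N, a difference of −1.27 (SE 0.30, limma adjusted p = 0.0278), and its interaction of arm∆N and tcf∆N-short was −1.75 (SE 0.43, adjusted p = 0.0441). gbb was the 1 listed gene with a higher interaction (1.13, SE 0.36, adjusted p = 0.0923), against 7.08% of all genes. tld, which encodes a protease that frees the Dpp ligand, was higher in arm∆N-tcf∆N-short than in arm∆N by 1.35 (SE 0.41, adjusted p = 0.0716). It was the 1 listed gene that was higher, against 6.27% of all genes. dpp itself, named after its values were seen, had a log2 intensity of 4.97 and 4.52 in Wg++ and 5.58 and 4.75 in arm∆N, against 5.23 and 5.02 in WT. It differed from WT by −0.38 (95% interval −1.18 to 0.42) in Wg++ and by 0.04 (95% interval −0.76 to 0.84) in arm∆N, without passing the test. The dpp arrays lay below WT without overlap in tcf∆N-short (4.54 and 4.51). They lay above WT without overlap in Otk++ (6.29 and 5.92) and DisArmed (5.79 and 5.39). dpp did not pass in these genotypes either.

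Of 11 other genes of the dorsal ectoderm and amnioserosa, 10 were tested. In tcf∆N-short, where 5.22% of all genes were lower than in WT, 2 of these 10 were lower. These were the neighbouring Iroquois homeobox genes ara, with 4.40 and 5.33 in tcf∆N-short against 6.4 and 6.76 in WT (−1.72, SE 0.32, adjusted p = 0.0103), and caup, with 4.29 and 4.67 against 5.79 and 6.34 (−1.59, SE 0.28, adjusted p = 0.00755). caup was also lower in tcf∆N-short than in tcf∆N-long, by −1.28 (SE 0.28, limma adjusted p = 0.0451), and was the 1 gene of this list to pass in that comparison, where none of the 10 amnioserosa and dorsal ectoderm genes did (3.19% of all genes passed). In Wg++, 2 of the 10 tested genes of this list were lower than in WT, near the 22% of all genes that were. They were emc (−0.72, adjusted p = 0.0331), a helix-loop-helix inhibitor, and mirr (−1.10, adjusted p = 0.0665), another Iroquois gene. In arm∆N none of this list passed against WT. Lower in Wg++ than in arm∆N were emc (−0.79, adjusted p = 0.0264) and raw (−0.76, adjusted p = 0.0645). These were 2 of the 10, near the 18.3% of all genes that were lower in that comparison.

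The genes whose 8 genotype means followed those of each of the 10 most closely were named by Pearson's r. For Doc2 the closest of all genes tested was Doc1 (0.945), and inv (0.947 and 0.927) and upd1 (0.945 and 0.923) were among the 3 closest of both. The closest gene to Doc1 was sens (0.969), and the closest to Doc3 was CG7567 (0.884). For zen it was Neu2 (0.989), followed by prd (0.979), a pair-rule gene of the early embryo. Ance was followed by CG18304 (0.989) and mRpL38 (0.984), peb by EndoG (0.996) and mRpL3 (0.991), and ush by SoxN (0.973) and Kr (0.971). With 8 points and 8862 genes, high values of r occur for many pairs.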

How the data were processed

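The 16 arrays of 8 genotypes were read from the values the authors deposited, which are log2 intensities normalized by them with GC-RMA (version not given in the sources used here). Arrays of embryos with Wnt4 are left aside. The platform annotation assigns a single gene to 13647 of 18952 probesets, and 13544 of these were found in the RefSeq gene table of Release 6 plus ISO1 MT, the source of coordinates. The probesets of wg and pan were named through a supplementary table of the study. Following the study's methods, each gene on a named chromosome was represented by its probeset of widest interquartile range, and genes above 2.5 on at least 2 arrays were tested (8862). limma 3.58.1 in R 4.3.3 was fitted with 1 coefficient per genotype (8 residual degrees of freedom, 2.72 from the prior). Calls needed a fold change above 1.5 and an FDR under 10% (F test over the 7 contrasts with WT: FDR under 1%), with Benjamini-Hochberg adjustment over all genes tested. The interaction is arm∆N-tcf∆N-short minus arm∆N, less tcf∆N-short minus WT. With 2 arrays per genotype, their number limits the precision of every p-value. The fit was tested on simulated data.

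All 10 genes are described with every probeset. Genes named from the other lists are, unless stated, among the 4 called genes with the lowest adjusted p in a comparison or belong to the blastoderm markers compared with zen. For each of the 10, genes are named by the highest correlation over genotype means. The 10 genes and all lists were chosen with earlier results of these data known. Alternatives were no filter, a filter at 4, choosing probesets by highest mean, eBayes with its trend and robust options, cyclic loess, replicate number as a block, an FDR under 5%, a fit of only the 2 genotypes compared, and each array left out in turn. Promoter and protein sequences were not used here.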

Additional observations from a re-analysis of the deposited data

Results flagged for a closer look

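The effect of tcf∆N-short on Doc1 differed between embryos with and without arm∆N, by a test of the difference itself. The interaction was 1.48 on the log2 scale (limma adjusted p = 0.0402), from 0.44 with arm∆N (6.46 and 6.43 in arm∆N-tcf∆N-short, 5.82 and 6.20 in arm∆N) and −1.04 without it (5.29 and 5.75 in tcf∆N-short, 6.4 and 6.72 in WT). The effect of 0.44 with arm∆N did not pass by itself (limma adjusted p = 0.339). Of the 10 genes, 1 passed the test of the interaction in this direction, a count near the 7.08% of all genes that did. The median interaction of the 5 blastoderm stage markers was 2.31, and their part in the Doc1 result was not tested. After cyclic loess the Doc1 interaction was 1.28 (limma adjusted p = 0.0837). Over fits that left out 1 array the Doc1 interaction was 1.25 to 1.71. It did not pass without tcf∆N-short replicate 1 or arm∆N replicate 1.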

How the results depend on the processing

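The expression filter, the probeset per gene, the prior, cyclic loess and the FDR under 5% left the counts of the 10 genes called unchanged in every comparison, with these exceptions. For arm∆N-tcf∆N-short minus arm∆N the count of 1 became 0 with no filter, 0 with the filter at 4 and 0 at an FDR under 5%. At an FDR under 5% the F test gave 3 in place of 1. Fits of only the 2 genotypes compared gave 0 in place of 1 for tcf∆N-short minus WT, 0 in place of 2 for arm∆N minus WT, 1 in place of 2 for Wg++ minus arm∆N and 0 in place of 1 for arm∆N-tcf∆N-short minus arm∆N, but 3 in place of 2 for Wg++ minus WT. These fits have fewer arrays to estimate the spread. They cannot give the interaction or the F test. No direction of a called gene reversed.

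Leaving out each array in turn gave 0 to 1 called genes for the F test and for tcf∆N-short minus WT, 1 to 3 for Wg++ minus WT, 0 to 2 for arm∆N minus WT, 1 to 2 for Wg++ minus arm∆N, 0 to 2 for arm∆N-tcf∆N-short minus arm∆N, and 0 to 2 for the interaction. The F test gave 0 without Wg++ replicate 1. Where a genotype was left with 1 array, it was assumed to vary like the others.

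The labels number the replicates, but differences between replicates correlated between genotypes from −0.53 to 0.68 (median 0.26, above 0.1 in 19 of 28 pairs), so the numbers were not taken to pair the arrays. With the number as a replicate block, 2 genes passed the F test, 4 were called in Wg++ minus WT (with pnr and ush), 3 in arm∆N-tcf∆N-short minus arm∆N (with peb and ush) and 2 in the interaction (with peb), and the other counts did not change. Over all genes tested, the block raised the calls to 1164 in tcf∆N-short, against 686 without it, to 790 against 331 in tcf∆N-long, to 85 against 53 in DisArmed, to 402 against 29 in Otk++, and to 741 against 283 between the TCF forms. In the interaction it gave 1811 against 992. The calls in Wg++ minus WT rose to 4088 of 8862 genes, against 3620 without the block. Those in arm∆N-tcf∆N-short minus arm∆N rose to 1472, against 1031.

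Cyclic loess moved the share of higher genes among those called to 64.5% from 39.9% in tcf∆N-long, to 54.9% from 40.5% in arm∆N, to 50% from 39.6% in DisArmed, to 52.4% from 37.9% in Otk++ and to 47.3% from 63.2% in the interaction. Values within about 1 of the lowest, such as those of C15, are too close to background to rank genotypes.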
